A study of Mus musculus with 18 samples.

Results

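AP-1 is a family of dimeric transcription factors built from JUN, FOS, BATF and ATF proteins, which share a basic region that touches DNA and a leucine zipper that joins the partners. The genes described are Jun, Junb, Jund, Fos, Fosb, Fosl2, Batf, Batf3 and Atf3 of the mouse, 9 of the 22180 genes measured here. They were taken as a fixed list by gene symbol, and each is read on the brightest probe set that carries only that symbol. JUN proteins pair with each other and with FOS proteins, whereas FOS proteins need a JUN partner. BATF and BATF3 lack the activating domain of FOS and work with JUN proteins and IRF factors in lymphocytes. Many of these genes are immediate early genes, whose RNA is made within minutes of a signal and decays fast. In human anaplastic large cell lymphoma JUN and JUNB protein are typically abundant.

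RNA of sorted mouse cells was hybridised to 18 Affymetrix arrays, 3 in each of 6 groups. Lymphoma cells came from the thymus of moribund Lck-Cre transgene mice that had been irradiated and given bone marrow infected with a retrovirus for NPM-ALK, the fusion kinase of this lymphoma, with expression limited to early T cells through the Lck-driven Cre. The series design names 3 lymphomas. Their cells were sorted into a fraction named common lymphoid progenitor (CLP) and the double-negative (lacking CD4 and CD8) fractions DN1, DN2, DN3 and DN4. The control was LSK cells, the bone marrow stem and progenitor cells that carry SCA1 and KIT and lack lineage markers, of wildtype bone marrow from mice of 18 months. No normal thymocytes were analysed here. Each comparison with LSK thus sets lymphoma T cells of irradiated and transplanted mice against another cell type and tissue, and these cannot be told apart. The sample labels give an age for the LSK mice only, so a difference in age is not known. Some description fields go against the genotype fields, giving NIPA KO or wild type and, on 12 arrays, 4 Gy of irradiation. The titles were followed. That dose is given for all DN1, DN2 and DN3 arrays, for no DN4 array, and for only some of the CLP and LSK arrays. A comparison of DN4 with DN1, DN2 or DN3 thus coincides with this label, and its part was not tested. The labels do not say whether arrays with the same replicate number come from the same lymphoma.

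The deposited values are log2 RMA signals, so a difference of 1 is a 2-fold change, and levels of different genes are not set against each other. Of 10 listed T cell markers 7 were measured, and 7 of 7 were called higher in the lymphoma than in LSK, as were 13.1% of all genes. Cd3e was at 11.98 to 12.98 on the lymphoma arrays, 12.45 to 12.64 on those of CLP, against 4.79 to 5.46 on LSK. The markers bore out T lineage in each fraction, also in CLP. They do not speak to lymphoma, since no normal thymocytes were analysed. Il7r, the receptor by which a CLP is usually sorted, was lower on the CLP arrays (6.97 to 8.68) than on the DN1 arrays (9.67 to 9.88). Xist read 3.55, 10.74 and 10.00 on LSK arrays 1, 2 and 3 and 3.81 to 5.03 on the lymphoma arrays. The LSK arrays thus differ in sex-linked RNA from each other, and arrays 2 and 3 also from the lymphoma. As a gauge of background, 95% of the 1108 olfactory receptor probe sets were below 5.36 to 5.71, depending on the array. In bulk samples, fewer cells of a type and less RNA per cell cannot be told apart.

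The stretches upstream of the start site are shown for the 3 genes that were higher in every lymphoma fraction (Jun, Fos, Fosb) and for the gene with the largest difference in the other direction (Fosl2). Each holds the 250 bases before the start of the RefSeq gene on GRCm38.p6, read 5′ to 3′ on the strand of the gene. Jun lies at chr4:95052223-95052472 on the minus strand, Fos at chr12:85473640-85473889 on the plus strand, Fosb at chr7:19310046-19310295 on the minus strand and Fosl2 at chr5:32136222-32136471 on the plus strand. Capitals mark matches to the motifs listed after the sequences.
Jun: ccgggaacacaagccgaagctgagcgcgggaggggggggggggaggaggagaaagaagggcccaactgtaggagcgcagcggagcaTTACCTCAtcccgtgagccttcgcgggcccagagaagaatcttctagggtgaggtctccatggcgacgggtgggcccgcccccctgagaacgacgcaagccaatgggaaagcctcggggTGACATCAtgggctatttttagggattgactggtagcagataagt
Fos: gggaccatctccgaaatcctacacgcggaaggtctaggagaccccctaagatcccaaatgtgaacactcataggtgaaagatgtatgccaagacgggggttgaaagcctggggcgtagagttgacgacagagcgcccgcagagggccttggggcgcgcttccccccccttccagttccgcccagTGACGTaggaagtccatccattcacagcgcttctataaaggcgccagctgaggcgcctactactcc
Fosb: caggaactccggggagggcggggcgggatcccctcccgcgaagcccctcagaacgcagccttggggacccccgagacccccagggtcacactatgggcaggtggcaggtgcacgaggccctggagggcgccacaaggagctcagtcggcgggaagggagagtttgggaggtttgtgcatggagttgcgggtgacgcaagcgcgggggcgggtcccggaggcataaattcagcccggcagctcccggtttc
Fosl2: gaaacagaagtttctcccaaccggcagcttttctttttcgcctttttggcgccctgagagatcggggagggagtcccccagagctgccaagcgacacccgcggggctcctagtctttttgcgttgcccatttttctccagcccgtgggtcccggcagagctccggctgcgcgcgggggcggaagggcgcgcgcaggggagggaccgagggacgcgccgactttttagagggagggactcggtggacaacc
Both strands were searched for TGACTCA (the AP-1 site), TGACGTCA (the cAMP response element, CRE), TGACGT (the first 6 bases of the CRE, contained in it), TGACATCA and TTACCTCA (CRE-like sites known from the Jun promoter), the CArG box of serum response factor and TTCCNGGAA (a STAT site). Jun carried TGACATCA at -45 to -38 and TTACCTCA at -164 to -157, counted back from the start site. TGACATCA was found in 2.93% and TTACCTCA in 0.728% of 32851 mouse promoters of the same length. Fos carried TGACGT at -66 to -61, Batf at -98 to -93 and Atf3 at -8 to -3, a motif in 6.47% of promoters. None of the 9 members had TGACTCA (4.46% of promoters), TGACGTCA (1.55%), the CArG box (1.47%) or TTCCNGGAA (0.913%) in this window. Fosb and Fosl2, which differed in opposite directions from LSK, had no match to any of them. These matches describe letters in a short window and not binding. Sites more than 250 bases upstream were not searched, so an absence holds for this window only.

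Across the family, 7 of 9 members differed between the lymphoma and LSK, 3 higher (Jun, Fos, Fosb) and 4 lower (Fosl2, Batf, Batf3, Atf3). Of all 22180 genes, 29% were called in this comparison, 13.1% higher and 15.8% lower. The test was limma on the mean of the 5 fractions of each replicate number against the LSK arrays, 3 values against 3, with Benjamini-Hochberg adjustment over all genes, and a gene was called at an adjusted p under 0.05. The median difference of the 9 members was -0.13, against 0.05 over all genes. Junb and Jund did not pass. Without LSK replicate 1 or lymphoma replicate 1, 2 members were lower (Fosl2 and Batf3).

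**Figure D1:**
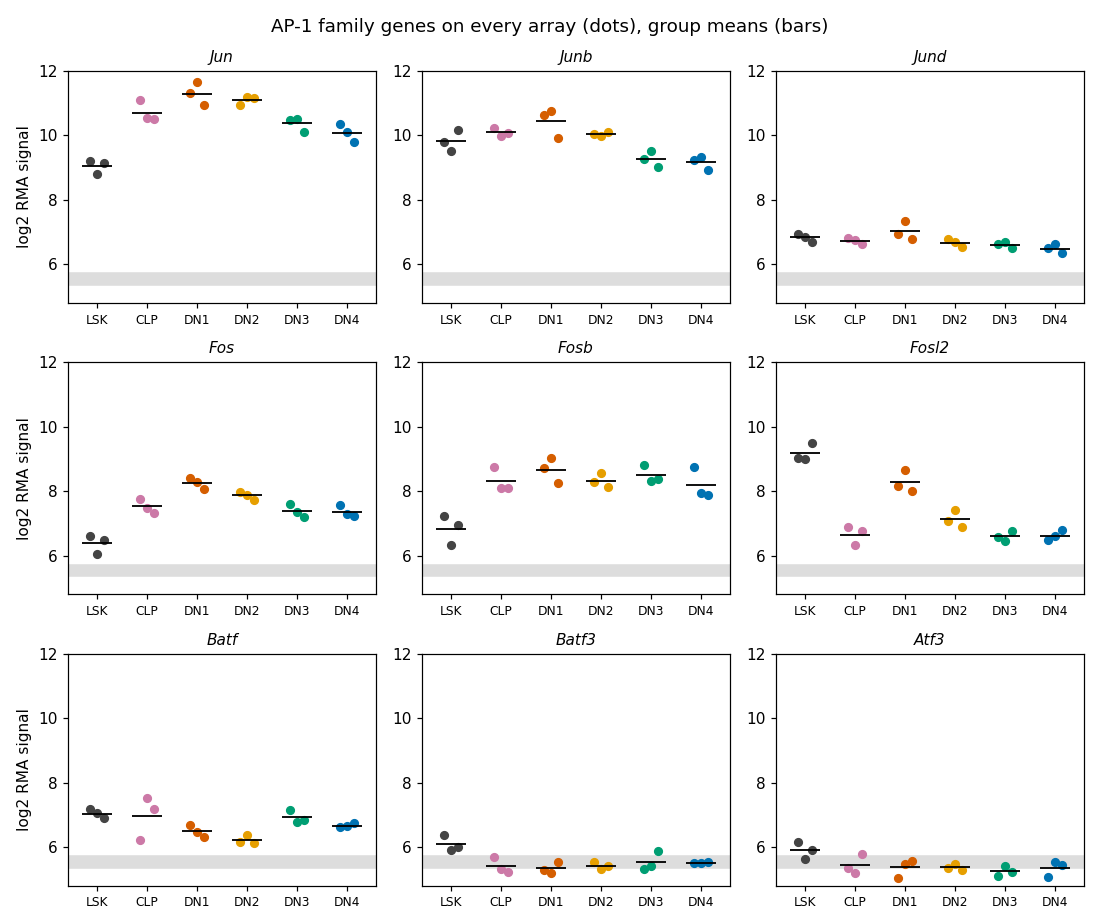
Log2 RMA signal of the 9 AP-1 genes on each of the 18 arrays, by group (dots, 3 arrays each; bars, group means; grey band, the 5.36 to 5.71 range near background). Jun, Fos and Fosb lie above all LSK arrays on all 15 lymphoma arrays (6.28% of genes) and Fosl2 and Batf3 below them (10.4%). Atf3 and Batf3 of the lymphoma sit in or close to the grey band.

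Among the JUN genes, Jun differed the most from LSK. Jun encodes c-Jun, the strongest activator of the JUN proteins. The Jun signal was 9.21, 8.79 and 9.15 on the LSK arrays. It was 11.09, 10.53 and 10.50 in CLP, 11.30, 11.65 and 10.93 in DN1, and 10.93, 11.20 and 11.15 in DN2. The DN3 arrays gave 10.48, 10.51 and 10.11 and the DN4 arrays 10.35, 10.09 and 9.79. All 15 lymphoma arrays were thus above all 3 LSK arrays, which 6.28% of genes showed. Over all fractions Jun was 3.15-fold higher (log2 1.66, SE 0.141, limma adjusted p = 1.59e-05). Each fraction was also set against the same LSK arrays, and the log2 difference of Jun was 2.24 (DN1), 2.04 (DN2), 1.65 (CLP), 1.32 (DN3) and 1.03 (DN4), all 5 called (limma adjusted p of 8.19e-07 to 0.000769).

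Junb encodes a JUN protein that is a weaker activator than c-Jun and is a known driver of CD30 expression in lymphoma cells. Its signal on the LSK arrays was 9.78, 9.50 and 10.17, in the middle of the lymphoma range. In DN1 it was 10.63, 10.76 and 9.92, in CLP 10.23, 9.97 and 10.08, and in DN2 10.03, 9.98 and 10.10. In DN3 it was 9.27, 9.50 and 9.01, and in DN4 9.23, 9.31 and 8.93. DN1, CLP, DN2 and DN3 overlapped LSK, and the DN4 arrays were at 8.93 to 9.31. The mean over fractions differed from LSK by -0.02 (95% interval -0.40 to 0.36, adjusted p = 0.945). Junb fell in DN4 relative to LSK (log2 -0.66, SE 0.177, limma adjusted p = 0.017), a call lost without DN4 replicate 3 (adjusted p = 0.0734). The difference was -0.55 in DN3 (adjusted p = 0.0545) and 0.62 in DN1 (adjusted p = 0.096), and neither passed.

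Jund encodes JunD, the JUN protein that resting cells usually carry. Jund had 2 probe sets, and the brighter one is used. It read 6.69 to 6.95 on LSK and 6.34 to 7.34 on the lymphoma arrays, and its mean over fractions differed from LSK by -0.13 (95% interval -0.38 to 0.13). No fraction was called against LSK. The other Jund probe set read 4.88 to 6.04 over all arrays, near background.

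Among the FOS genes, Fos and Fosb were higher in the lymphoma and Fosl2 was lower. Fos encodes c-Fos, the classical immediate early partner of c-Jun. Its signal was 6.62, 6.05 and 6.47 on LSK. It was 8.41, 8.29 and 8.08 in DN1, 7.97, 7.89 and 7.74 in DN2, and 7.77, 7.48 and 7.33 in CLP. In DN3 it was 7.59, 7.34 and 7.19, and in DN4 7.57, 7.29 and 7.23. No lymphoma array reached down to the LSK arrays, as was so for 6.28% of genes. Fos was 2.46-fold higher over all fractions (log2 1.30, SE 0.156, limma adjusted p = 0.000182), from log2 1.88 in DN1 to 0.98 in DN4.

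Fosb encodes FosB, whose short splice form lacks the activating end. Which of the forms the probe set reads is not known here. The Fosb signal was 7.24, 6.34 and 6.95 on LSK and ranged from 7.89 to 9.04 on the 15 lymphoma arrays, with a median of 8.32. Again all lymphoma arrays were above LSK, as they were for 6.28% of genes. Fosb was 2.95-fold higher (log2 1.56, SE 0.217, limma adjusted p = 0.000469), and the difference was 1.83 in DN1, 1.65 in DN3, 1.48 in DN2, 1.47 in CLP and 1.36 in DN4, all called.

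Fosl2 encodes FRA-2, a FOS protein without a strong activating domain that is expressed later than c-Fos after a stimulus. Its signal was 9.03, 9.01 and 9.51 on LSK. In DN1 it was 8.17, 8.67 and 8.02, in DN2 7.09, 7.43 and 6.89, and in CLP 6.88, 6.33 and 6.76. In DN3 it was 6.57, 6.46 and 6.77, and in DN4 6.48, 6.61 and 6.78. By mean LSK was highest, DN1 next and DN2 after it, while CLP, DN3 and DN4 overlapped. All 15 lymphoma arrays were below LSK, as they were for 10.4% of genes. Fosl2 was 4.36-fold lower over all fractions (log2 -2.12, SE 0.138, limma adjusted p = 2.6e-06). The log2 difference was -0.90 in DN1, -2.05 in DN2, -2.53 in CLP, -2.56 in DN4 and -2.58 in DN3, all 5 called.

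**Figure D2:**
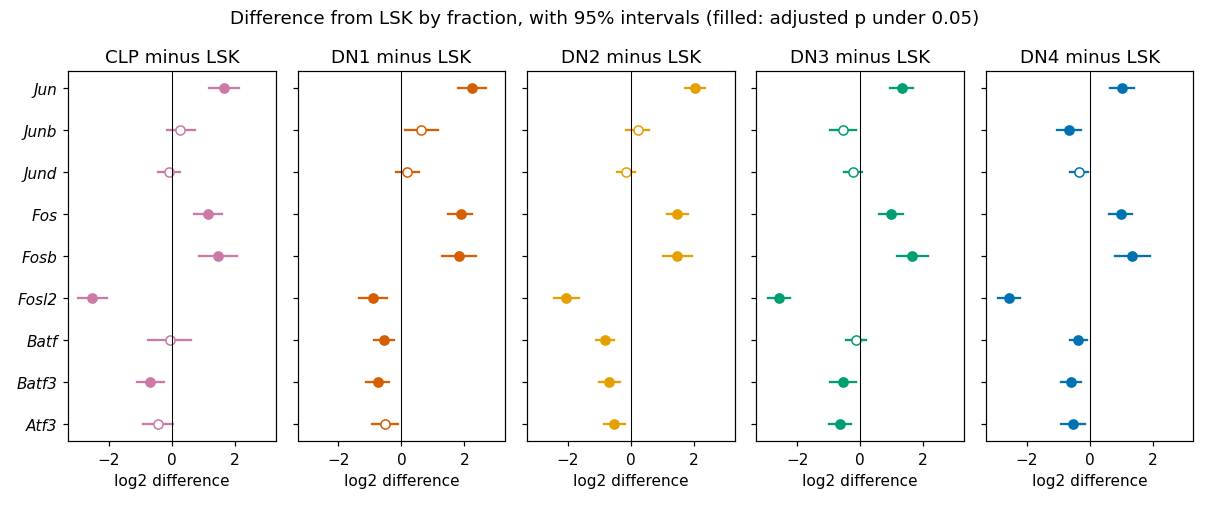
Log2 difference of each AP-1 gene between 1 lymphoma fraction and LSK (3 arrays against 3; bars, 95% intervals of limma; filled symbols, adjusted p under 0.05). Jun, Fos and Fosb are right of 0 and Fosl2 left of 0 in all 5 panels, and the Fosl2 difference is smallest in DN1 (-0.90); the 5 panels share the same LSK arrays.

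The BATF and ATF genes showed smaller differences. Batf, a partner of JUN and IRF4 in T cells, read 7.17, 7.06 and 6.90 on LSK. In CLP it read 6.21, 7.52 and 7.18, in DN1 6.68, 6.48 and 6.32, and in DN2 6.16, 6.37 and 6.12. In DN3 it read 7.15, 6.79 and 6.83, and in DN4 6.61, 6.66 and 6.76. CLP array 1 thus stood with DN2, and the other CLP arrays were the highest of the lymphoma. Over all fractions Batf was 1.31-fold lower than LSK (log2 -0.39, limma adjusted p = 0.0235), a call that was lost without LSK replicate 1 (adjusted p = 0.0666), LSK replicate 2 (0.0506), lymphoma replicate 1 (0.109) or lymphoma replicate 3 (0.0762). In DN2 the fall of 0.83 (SE 0.128, limma adjusted p = 0.000502) was the largest, and in CLP and DN3 Batf did not pass (-0.07 and -0.12).

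Batf3, needed for a class of dendritic cells, read 6.39, 5.91 and 5.99 on LSK and 5.21 to 5.89 on the lymphoma arrays, which lie in or near the background range. All 15 lymphoma arrays were below LSK, as they were for 10.4% of genes, and the log2 difference of -0.65 (SE 0.134, limma adjusted p = 0.0052) has a lymphoma side that is close to background. Atf3, a stress-induced repressor and activator, read 6.17, 5.62 and 5.91 on LSK and 5.05 to 5.78 on the lymphoma arrays. There 14 of 15 lymphoma arrays were below LSK, with a difference of -0.54 (SE 0.147, limma adjusted p = 0.021) that was not called without LSK replicate 1 (adjusted p = 0.0582) or lymphoma replicate 1 (adjusted p = 0.0944). Both genes are near background in the lymphoma.

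Counted by fraction, the members called against LSK numbered 5 of 9 for CLP (17.7% of all genes), 6 for DN1 (19.7%), 7 for DN2 (25.4%), 6 for DN3 (24.5%) and 8 for DN4 (26.6%). Jun, Fos and Fosb were the 3 higher members in each fraction, where the share of all genes that were higher was 6.54% (CLP), 7.45% (DN1), 11.4% (DN2), 11.4% (DN3) and 11.8% (DN4). The lower members numbered 2 for CLP (11.2% of genes), 3 for DN1 (12.3%), 4 for DN2 (14%), 3 for DN3 (13.1%) and 5 for DN4 (14.9%). These lower counts rest partly on single arrays. For CLP 1 member was lower without CLP replicate 2 or 3 or any 1 of the LSK arrays, and for DN3 1 without LSK replicate 1 or DN3 replicate 1. For DN4 2 were lower without DN4 replicate 3, and 3 without LSK replicate 1 or DN4 replicate 1. All 5 comparisons use the same LSK arrays, so they are not independent of each other. Markers of other cells moved with the same contrast. In the lymphoma 8 of 8 stem and progenitor markers and 7 of 10 granulocyte markers were lower than in LSK, where 15.8% of all genes were. Kit, 1 of the 8, is a marker that defines LSK cells, hence no finding. Of 10 macrophage markers 3 were higher, where 13.1% of all genes were, and 4 lower. The mean signal of 10 granulocyte markers was 6.81 to 8.23 on LSK arrays and 4.66 to 5.54 on lymphoma arrays, with Mpo at 10.41 in LSK. Their part in the AP-1 differences was not tested.

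The 15 lymphoma arrays come from 3 lymphomas, and the model treats them as independent. Within the lymphoma, 4 of 9 members differed among the 5 fractions by the F test of limma on the 15 lymphoma arrays, against 7.88% of all genes. They were Fosl2 (span of 1.69 between the highest and lowest fraction mean, adjusted p = 2.76e-05), Junb (1.28, 0.000497), Fos (0.90, 0.0026) and Jun (1.22, 0.0029). In each of the 4 the DN1 mean was the highest of the lymphoma and the lowest was in DN3 or DN4. Jund (adjusted p = 0.181), Batf (0.204), Fosb (0.762), Batf3 (0.919) and Atf3 (0.963) did not pass. Without DN1, 2 members were called, Jun and Junb, and Fos and Fosl2 were not (adjusted p = 0.22 and 0.242), an alternative chosen after the data were seen. Without CLP replicate 1 Batf was called as well (adjusted p = 0.000952).

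From DN1 to DN4, 5 of 9 members fell and 0 rose, where 5.61% of all genes were called, 2.79% lower and 2.82% higher. In the usual course of thymocytes these stages run from early progenitors to cells that have passed the pre-TCR checkpoint. The description fields give an irradiation dose for all DN1 arrays and for no DN4 array, and the part of this label was not tested. Fosl2 fell by 1.66 (SE 0.192, limma adjusted p = 1.53e-05), Junb by 1.28 (SE 0.193, 0.000266), Jun by 1.22 (SE 0.206, 0.000869), Fos by 0.90 (SE 0.156, 0.00112) and Jund by 0.54 (SE 0.148, 0.04), all on the log2 scale. For these 5 genes no DN4 array reached the DN1 arrays, as 8.99% of genes showed in that direction. The Jund call was lost in several settings, for example without DN1 replicate 2 (log2 -0.38, adjusted p = 0.202) or DN4 replicate 3 (adjusted p = 0.189). Fosb differed by -0.47 (95% interval -1.01 to 0.06), Batf by 0.18 (-0.32 to 0.68), Batf3 by 0.17 (-0.18 to 0.51) and Atf3 by -0.01 (-0.39 to 0.37), and none of these passed. The median difference of the 9 members was -0.54, against 0.03 over all genes. Among 10 macrophage markers 1 was called between DN1 and DN4, lower in DN4 (Mrc1, at 7.87 and 5.33). The mean signal of the list was 5.84 to 5.95 on DN1 arrays and 5.51 to 5.63 on DN4 arrays. Csf1r, Adgre1, Cd14 and Lyz2 were at 5.62 or less in both, whereas Cd68 (8.86 in DN1 and 8.75 in DN4) and C1qa (6.14 and 6.25) were above background in both. Of 7 T cell markers 3 were higher in DN4 than in DN1 (Cd3e by 0.74, Cd3g by 0.52 and Cd5 by 1.74, named after their values were seen), with a median of 0.52 against 0.03 over all genes. Of 10 granulocyte markers 1 was lower in DN4, Camp, and the mean signal of the list was 4.72 to 5.54 on DN1 arrays and 4.68 to 4.98 on DN4 arrays, with Ngp at 4.79, 7.09 and 6.48 on the DN1 arrays. The stem and progenitor, B cell, dendritic cell and stroma lists had 1 called gene each. The part of these markers in the AP-1 values was not tested.

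**Figure D3:**
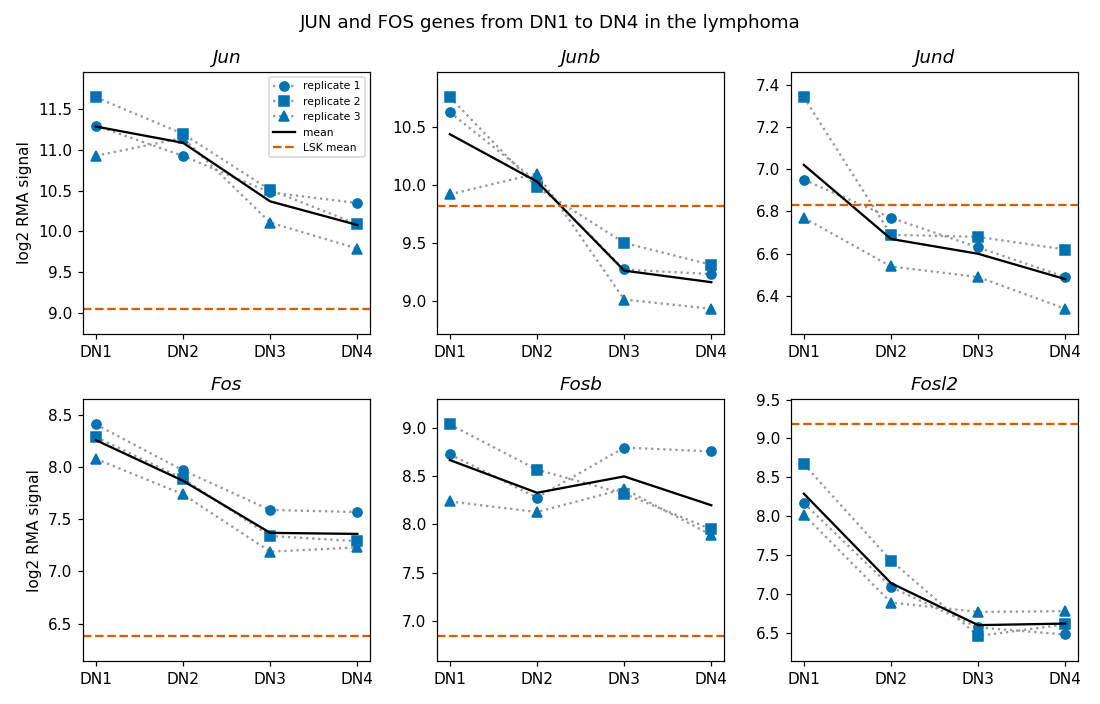
Log2 RMA signal of the JUN and FOS genes in DN1, DN2, DN3 and DN4 (symbols, the 3 replicate numbers; solid line, mean; dashed line, LSK mean; axes differ between panels and do not start at 0). Jun, Junb, Fos and Fosl2 are lower in DN4 than in DN1 at each replicate number, and the Junb mean goes from above the LSK mean in DN1 and DN2 to below it in DN3 and DN4.

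Single steps gave fewer calls. From DN1 to DN2 Fosl2 fell by 1.15 (SE 0.192, limma adjusted p = 0.00383), the only member of 9 called in a comparison that called 1.35% of genes. From DN2 to DN3 Junb fell by 0.77 (SE 0.193, limma adjusted p = 0.0417), 1 of 9 members, where 2.45% of genes were called. That call was lost in 8 of 21 settings, with adjusted p of 0.00642 to 0.232, among them without any of the DN2 arrays, DN3 replicate 1 or 3, or DN4 replicate 1 or 2. Jun (-0.72, adjusted p = 0.0913) and Fos (-0.49, 0.157) were also lower on every DN3 array than on every DN2 array, as were 6.98% of genes, but did not pass. Same-numbered DN2 and DN3 arrays deviated together in 3 of 3 pairs. With the replicate number as a block Fos (limma adjusted p = 0.0223) and Jun (0.04) were called lower in DN3 along with Junb, 3 of 9 members. The 2.45% of genes belongs to the fit without the block, and the share of all genes under the block is not given here. Whether the block added calls among the members beyond those among all genes was thus not tested. The block covered all lymphoma arrays, also those of CLP and DN1. Same-numbered CLP and DN1 arrays did not deviate together (correlations of -0.193, -0.039 and -0.019). The blocked calls thus do not rest on the DN2 and DN3 pairs alone. Between DN3 and DN2 arrays of the same number Jun differed by -0.45, -0.69 and -1.04 and Fos by -0.38, -0.55 and -0.55. Batf differed by 0.70 (adjusted p = 0.212). Without CLP replicate 1, which then no longer enters the spread, Batf passed this step (adjusted p = 0.00894) and so did Jun (0.0399). From DN3 to DN4 limma called 0 members and 1 gene in all (0.00451%), with 0 members also at an unadjusted p under 0.05 (2.97% of genes). When CLP was set against the average of the 4 double-negative fractions, limma called 0 members and 4.44% of genes. At an unadjusted p under 0.05 there were 3 (Fosl2 -0.51, Junb 0.37, Batf 0.40), as were 18.6% of genes. Without CLP replicate 1, Fosl2 (adjusted p = 0.0352) and Batf (0.00274) passed.

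The members varied together over the 15 lymphoma arrays to different degrees. Jun correlated with Junb (Pearson r = 0.91, Spearman rho = 0.88), Fos (0.89 and 0.87), Jund (0.80 and 0.79) and Fosl2 (0.74 and 0.69), and less with Fosb (0.59 and 0.44). Fos correlated with Fosl2 at r = 0.85 and rho = 0.73. Batf ran the other way from Jun (r = -0.50) and Fos (r = -0.49). The arrays share 5 sort fractions and 3 replicate numbers, so the points are not independent. Likeness was ranked among 10165 genes with a mean above that of the median gene, with predicted and clone-named genes and some gene families left out. The closest to Jun over the same arrays were Treml2 (r = 0.947) and Esyt1 (0.931), and the closest to Fos were Atp2b4 (0.97) and Ppm1h (0.949). Those closest to Junb were Acox2 (0.931) and Stx7 (0.922), and those closest to Fosl2 were Samhd1 (0.963) and Selp (0.958). Over all 18 arrays, where LSK stands apart, Sema7a was closest to both Jun (0.968) and Fos (0.962), which were next closest to each other (0.959).

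The remaining bZIP genes share the DNA-binding zipper fold. Of 24 measured, 14 fell and 0 rose against LSK, where 15.8% of all genes fell and 13.1% rose, with a median of -0.48 against 0.05 over all genes. Nfe2, a factor of megakaryocytes and red cells, fell (adjusted p = 3.48e-07) from 8.16 in LSK to fraction means of 5.18 to 5.37, at or below background, so the size of its fall is not resolved. Its partner Mafg differed by -1.63. Cebpa, a factor of myeloid progenitors, was close to background in LSK (5.76) and below it in the fractions (4.30 to 4.68). Among the fractions 3 of 24 differed, where 7.88% of all genes did, with Cebpd (span 1.31, adjusted p = 0.000207, with fraction means of 6.12 or less, partly below background) and Bach2, which competes with AP-1 for DNA sites (1.29, 0.0004), the clearest.

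Kinases and phosphatases set AP-1 activity. Of 15 MAP kinase genes 2 rose and 3 fell against LSK, near the share of all genes (29% called, 13.1% higher and 15.8% lower), which reads as no result about these kinases as a list. Map2k6 and Map2k3, both activators of p38, differed in opposite directions. Map2k3 differed by -1.89. Map2k6 rose (limma adjusted p = 9.65e-06) from 4.55 in LSK, below background, to fraction means of 5.89 to 7.10, so the size of its rise is not resolved. Of 15 phosphatase and Sprouty-type inhibitor genes 3 rose and 4 fell, against the same shares. Dusp10, which removes phosphate from JNK and p38, rose by 3.97 (SE 0.138, adjusted p = 4.49e-08), while Dusp5, an inhibitor in the ERK pathway, differed by -2.35. Spry2, another such inhibitor, fell (adjusted p = 1.02e-07) from 7.58 in LSK to fraction means of 4.89 to 5.02, below background. From DN1 to DN4, 6 of the 15 inhibitor genes rose and 0 fell, where 2.82% of all genes rose and 2.79% fell. Among them were Dusp5 (1.23, adjusted p = 0.000319) and Spred1 (adjusted p = 0.000621), the latter from 4.73, below background, to 6.12. Map3k8, a kinase above ERK, fell by 2.94 over the same range (SE 0.201, adjusted p = 2.49e-08), and Mapk11, a p38 kinase, differed by -1.31 (adjusted p = 2e-05). The part of these kinase and inhibitor genes in the AP-1 values was not tested.

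**Figure D4:**
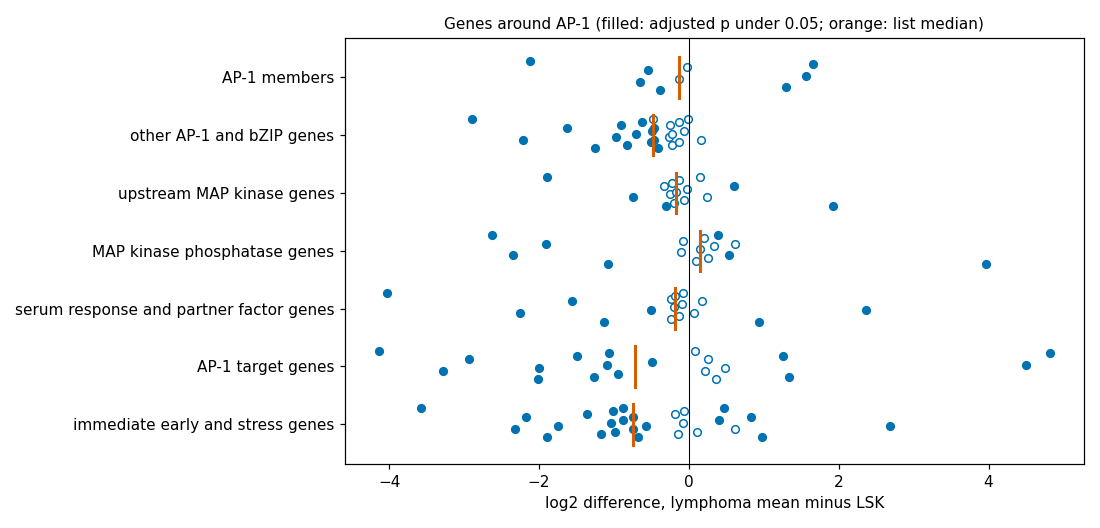
Log2 difference between the lymphoma mean and LSK for each measured gene of the AP-1 family and of 6 lists around it (filled, adjusted p under 0.05; orange, list median; vertical spread within a row has no meaning). The bZIP, target and immediate early lists have medians of -0.48, -0.72 and -0.74, left of the all-gene median of 0.05, and each list except the bZIP genes has called genes on both sides; differences of genes at background in 1 group have no resolved size.

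Of 16 serum response and partner factor genes, which induce or accompany AP-1, 2 rose and 5 fell against LSK, where 13.1% of all genes rose and 15.8% fell. Ets1, a common neighbour of AP-1 at T cell genes, was higher by 2.36 (adjusted p = 1.43e-06), and Irf8 differed by -2.26 (adjusted p = 7.75e-07). Mef2c fell (adjusted p = 3.47e-08) from 8.80 in LSK to fraction means of 4.54 to 4.92, below background. Among the fractions Ets2 spanned 2.22 (adjusted p = 6.58e-09) and Runx3 1.21 (9.93e-05). Ets2 rose by 2.18 from DN1 to DN4, where Jun and Fos fell, and a link between them was not tested.

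Of 20 measured genes known as AP-1 targets 4 rose and 11 fell against LSK, where 13.1% of all genes rose and 15.8% fell, with a median of -0.72. Of the 20, 6 had means below background in LSK and 8 to 10 in each fraction. The count and the median thus rest partly on genes at background. Tnfrsf8, which encodes CD30, was at 10.20 to 10.55 in the fraction means and 5.57, near background, in LSK (adjusted p = 1.14e-07). Pdgfrb, a receptor kinase that JUN and JUNB drive in this disease, was at 12.14 to 12.61 against 7.94 (log2 4.50, SE 0.172). The others that rose were Ccnd1 (1.26) and Cdkn2a (1.33), both named after their values were seen. Gzmb, a granule protease under JUNB control in human lymphoma, is among the 11 but was not above background on either side, with means of 5.43 in LSK and 4.16 to 4.90 in the fractions. Vegfa fell by 4.14 (adjusted p = 9.92e-09). Among the fractions 8 of 20 differed (7.88% of all genes), with Il2ra (a sort marker, hence no finding; span 3.71) and Lgals1 (4.66, adjusted p = 2.36e-09) the clearest. Lgals1, a galectin, had a mean of 10.52 in DN1, then 9.02 (DN2), 6.31 (DN3) and 5.86 (DN4). A link between the values of these target genes and those of the AP-1 genes was not tested.

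The other immediate early and stress genes mostly differed from LSK in the direction opposite to Jun, Fos and Fosb. Of 27 measured 16 fell and 5 rose, where 15.8% of all genes fell and 13.1% rose, with a median of -0.74. Nr4a2 (7.32 in LSK, adjusted p = 1.19e-05) and Hspa1a, a heat shock protein (8.35 in LSK, 1.42e-05), fell to fraction means of 4.88 to 5.25 and 4.41 to 5.53, not above background. Sgk1 rose by 2.69 (adjusted p = 4.47e-06). Egr1, named after its values were seen, was at 7.44 in LSK and 5.74 to 6.44 in the fractions (log2 -1.36, adjusted p = 7.03e-05). From DN1 to DN4, 6 of the 27 fell and 1 rose (2.79% and 2.82% of all genes), with Sgk1 at -2.61 (adjusted p = 5.52e-09) and Klf6 at -1.06 (adjusted p = 7.19e-05). A link to the fall of JUN and FOS genes was not tested.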

How the data were processed

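Signals on the log2 scale, as deposited, were made by the authors with RMA and the oligo package, per the submitters' processing notes; versions are not given in the sources used here. Of 41345 probe sets, 23521 carry 1 gene symbol in the platform annotation, 1814 several and 16010 none, and only the first kind was used. For each of 22180 genes the probe set with the highest mean over the 18 arrays was kept. All adjusted p values come from limma 3.58.1 in R 4.3.3, with the Benjamini-Hochberg method over all genes, and tests were two-sided. Differences of fractions from each other came from 1 model of the 15 lymphoma arrays. The scripts were tested on simulated data. The number of arrays, 3 per group, limits the precision. Where no label says that samples come from separate animals, p-values measure only the spread between these samples, which may be technical.

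The members and gene lists were chosen with earlier results of these data known. Named from each list are up to 3 genes called against LSK with the smallest p and up to 2 by the F test, plus Tnfrsf8, Gzmb and Pdgfrb; other names are marked. Among the cell markers, examples were chosen after their values were seen. For likeness the genes with the highest Pearson correlation were taken. Alternatives were a filter on dim genes, other scalings (quantile, median centring), averaged probe sets, another limma prior, a replicate block, a joint model with LSK, and omission of each array. Same-numbered arrays had correlated deviations over 0.1 in 3 of 3 pairs for DN3 against DN2 (0.139 to 0.259), DN4 against DN3 (0.108 to 0.273) and DN4 against DN1 (0.121 to 0.135), so there the numbers were taken to pair the arrays and the blocked fit is given where it changed a call. This pairing comes from the data, not the labels, and is not clear for every array. DN3 array 2 was closer to a DN4 array of another number (0.166 against 0.108), and so was DN1 array 2 (0.122 against 0.121). Over all pairs of fractions the own number was closest in 20 of 30. For DN2 against DN1 (1 of 3 pairs), CLP and LSK the numbers were not taken to pair the arrays. The blocked fit of the fractions nevertheless held all lymphoma arrays, CLP and DN1 among them. Averaging the fractions by number for the comparison of the whole lymphoma with LSK used the number as a name only. Promoter sequences are from RefSeq on GRCm38.p6, with 9 of 9 members matched by symbol.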

Additional observations from a re-analysis of the deposited data

Results flagged for a closer look

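The difference from LSK was not the same in all 5 lymphoma fractions for 4 members, by the F test of limma among fractions (LSK cancels out of this test). Adjusted p values were 0.0029 for Jun, 0.000497 for Junb, 0.0026 for Fos and 2.76e-05 for Fosl2. For Jun and Fos all fractions were above LSK and DN1 was farthest from it, for Fosl2 all were below LSK and DN1 was nearest to it, and for Junb the DN1 mean was above and the DN4 mean below LSK.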

How the results depend on the processing

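Under all alternatives run, Jun, Fos and Fosb were called higher and Fosl2 lower in the lymphoma as a whole and in each fraction, and Jun, Junb, Fos and Fosl2 were called lower in DN4 than in DN1. Over all 9 members and 12 comparisons no called difference changed its sign, 71 calls were lost and 19 gained. The call of Batf over all fractions was lost in 8 of 18 alternatives, among them median centring (adjusted p = 0.0513), all 18 arrays in 1 model (0.106) and, chosen after the data were seen, the mean without DN1 (0.0541) or DN2 (0.0931). Median centring left 0 members called from DN2 to DN3, against 1. Leaving out 1 array gave 5 to 7 called members for all fractions against LSK, 4 to 5 for CLP, 5 to 7 for DN1, 6 to 7 for DN2, 4 to 6 for DN3 and 5 to 7 for DN4, 4 to 5 in the F test, 4 to 5 for DN4 against DN1, 0 to 3 for DN3 against DN2 and 0 to 2 for CLP against the average of the other fractions; DN2 against DN1 stayed at 1 and DN4 against DN3 at 0. Without DN1, chosen after the data were seen, the F test called 2 members and 776 genes, against 1748. With the replicate block over all lymphoma arrays 3 members (Jun, Junb, Fos) were called from DN2 to DN3. The block changed no other member's call between double-negative fractions. Against LSK the block lost Batf3 in DN3 (adjusted p = 0.0661) and Batf (0.0666) and Atf3 (0.0563) in DN4. Over all pairs of fractions, same-numbered arrays had a median correlation of deviations of 0.121 (-0.193 to 0.346). Counts over all genes moved by more than 1.5 times for CLP against LSK (3928, then 6140 with all 18 arrays in 1 model and 2559 without LSK replicate 1), for CLP against DN1 to DN4 (984, then 609 to 1939 without 1 array), for DN2 against DN1 (300, then 144 without DN2 replicate 2 and 168 without DN2 replicate 3) and for DN4 against DN3 (1, then 2 without DN3 replicate 1). The cause was not tested.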

Other observations

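The CLP arrays were the least alike of the 6 groups (r of 0.968 to 0.975 between arrays over all genes, against 0.982 to 0.993 in the others). CLP array 1 had the highest Jun (11.09), Fos (7.77) and Fosb (8.75) of its group and the lowest Batf (6.21, against 7.52 and 7.18).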
